A study of Mus musculus with 32 samples.

Results

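The standard proteasome is the protease that breaks down most cytosolic and nuclear proteins marked with ubiquitin. Its genes were taken as the probe sets whose only platform gene symbol begins with Psma to Psmg followed by a digit, without Psmb8, Psmb9, Psmb10, Psme1 and Psme2, which form the immunoproteasome and its activator. The rule found 42 genes of 8251 named on the array, on 53 of 12422 probe sets. Livers of 32 aged male B6C3F1 mice had been hybridised, 1 array per mouse and 4 per group, to ask how dietary restriction and glucose-lowering or other agents alter liver transcripts. LTCR mice ate 52.2 kcal per week of a restricted, enriched diet from 5 months of age. CR8 mice were moved at 20 months to 77 kcal per week of that diet, which they ate for 2 weeks, and were held at 52.2 kcal weekly over the next 6 weeks. For 8 weeks from 20 months, MET mice received metformin in the control diet, GLIP mice glipizide, GM mice both drugs, ROS mice rosiglitazone and SOY mice a soy isoflavone extract. CON mice ate 93 kcal per week of the control diet from 5 months of age. Every mouse of the 8 groups, CON included, was killed at 22 months after a fast of 48 h, so that all levels are those of long-fasted livers. The drug doses were not used here.

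The 26S proteasome has a barrel, the 20S core, and a cap, the 19S regulator, at one or both ends. Rings of Psma (alpha) subunits gate the barrel, and Psmb (beta) subunits form its inner rings, in which Psmb5, Psmb6 and Psmb7 are the proteolytic subunits. In the cap, the Psmc subunits are ATPases that unfold the substrate, and the Psmd subunits bind ubiquitin chains, remove them or build the lid. In mammalian cells the transcription factors Nfe2l1 and Nfe2l2 raise proteasome genes through the antioxidant response element, and NF-Y binds CCAAT boxes in many proteasome promoters.

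The promoters of 4 genes are shown as examples of cap genes chosen by their p: Psmd14, Psmc2 and Psmd12 had the smallest p in LTCR, and Psmd4 was the member that was higher in GM than in CON. Each sequence runs from 250 bases before to 50 bases after the start site (RefSeq, GRCm38.p6). Capitals mark matches on either strand to TGACNNNGC, the core of the antioxidant response element, to CCAAT and to GGGCGG, the GC box bound by Sp1. Psmd14 lies at chr2:61711444-61711743 on the plus strand, Psmc2 at chr5:21785025-21785324 on the plus strand, Psmd12 at chr11:107479278-107479577 on the plus strand and Psmd4 at chr3:95042565-95042864 on the minus strand.
Psmd14: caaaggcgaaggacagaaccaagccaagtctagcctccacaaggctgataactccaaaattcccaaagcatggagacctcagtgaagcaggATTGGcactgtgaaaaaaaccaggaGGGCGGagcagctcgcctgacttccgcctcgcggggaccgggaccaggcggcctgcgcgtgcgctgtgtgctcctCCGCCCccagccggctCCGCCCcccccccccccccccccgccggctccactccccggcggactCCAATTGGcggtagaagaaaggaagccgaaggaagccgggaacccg
Psmc2: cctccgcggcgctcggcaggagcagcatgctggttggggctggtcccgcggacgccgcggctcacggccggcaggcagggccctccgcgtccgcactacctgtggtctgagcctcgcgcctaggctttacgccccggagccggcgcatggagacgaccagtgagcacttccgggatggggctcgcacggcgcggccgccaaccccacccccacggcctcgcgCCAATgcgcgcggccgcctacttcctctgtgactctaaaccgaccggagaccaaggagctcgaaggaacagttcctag
Psmd12: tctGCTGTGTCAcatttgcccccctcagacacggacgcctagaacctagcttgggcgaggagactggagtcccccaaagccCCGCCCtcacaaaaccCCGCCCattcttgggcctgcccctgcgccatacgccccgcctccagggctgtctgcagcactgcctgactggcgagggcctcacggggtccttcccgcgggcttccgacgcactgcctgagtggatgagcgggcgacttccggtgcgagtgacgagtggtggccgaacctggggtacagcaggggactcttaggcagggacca
Psmd4: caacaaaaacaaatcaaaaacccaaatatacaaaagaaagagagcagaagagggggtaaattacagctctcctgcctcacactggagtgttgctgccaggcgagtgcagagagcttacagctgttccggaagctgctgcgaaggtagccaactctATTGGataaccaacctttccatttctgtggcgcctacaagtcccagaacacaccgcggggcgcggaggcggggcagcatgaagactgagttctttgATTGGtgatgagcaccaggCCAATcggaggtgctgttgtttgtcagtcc

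Psmd14 held 3 matches to CCAAT, 2 of which overlap on opposite strands, and 3 to GGGCGG. Psmc2, of which the first of 2 listed promoters is shown, held 1 CCAAT. Psmd12 held 1 TGACNNNGC and 2 GGGCGG, and Psmd4 held 3 CCAAT. Promoters were listed for 35 of the 42 genes, 38 in all. Of these 38, CCAAT was in 36.8%, against 37.4% of the 32851 listed mouse promoters, TGACNNNGC in 15.8% against 12.4%, and GGGCGG in 55.3% against 35.7%. TGACNNNGC was found in the promoters of Psmb5, Psmb6, Psmc6, Psmd9, Psmd12 and Psme4. These are matches of letters in a window and do not show binding.

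The deposited values are linear intensities. Tests were run on log2(intensity + 27) with limma in 1 fit over the 8 groups, and a probe set was called where its Benjamini-Hochberg adjusted p was below 0.05 over the 7357 probe sets kept by a filter on low intensity. Of the 53 proteasome probe sets, 46 for 39 genes passed that filter. These were 16 probe sets for 14 core genes, 22 for 18 cap genes and 8 for 7 activator, core assembly or other genes. The cap was taken as all Psmc and Psmd genes. Its 22 probe sets therefore include 3 for Psmd5, Psmd9 and Psmd10, which are assembly chaperones of the cap. The 7 that did not pass averaged 9.10 to 78.7 units over the 32 arrays and belonged to Psmb1, Psmb4, Psmc4, Psmc5, Psmd2 and Psmc3ip. Psmb1, Psmb4 and Psmc5 were measured through other probe sets, while Psmc4, Psmd2 and Psmc3ip were not. Psmc3ip, a meiotic recombination factor, and Psme3ip1 match the name pattern without being subunits.

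The arrays had medians of 144.9 to 170.3 units and correlated pairwise between 0.928 and 0.977. Each of 8 hepatocyte markers measured was at 2016.3 units or more on every array. Skeletal muscle transcripts were raised on 5 arrays, CR8 1, CR8 2, ROS 4, SOY 3 and CON 3, whose 14 muscle markers summed to between 10280 and 29480 units, against at most 5072 units on the other arrays. Where leaving out these 5 arrays ended the call of a proteasome member or partner, this is said beside it. Kupffer cell and macrophage markers summed to 18650 units on GLIP 3, against at most 8754 units on the other arrays. The part of this array in the GLIP comparisons was not tested. Whether fewer cells of a type or less RNA per cell lies behind a difference cannot be told apart in whole liver. Nothing in the sources used here gives hybridisation batches.

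Across all 8 groups, 19 of the 46 proteasome probe sets (41.3%) differed by limma's F-test, against 27.0% of all probe sets tested. These were 13 of 22 cap probe sets, 5 of 16 core probe sets and 1 of 8 others. The smallest adjusted p values belonged to Psmd14 (0.000366), Psmc2 (0.000645), Psma6 (0.00146) and one Psmd11 probe set (0.00267). Psmd14 is the deubiquitinase of the lid, Psmc2 an ATPase of the base, Psma6 an alpha subunit and Psmd11 a lid subunit. The core probe sets were those of Psma3, Psma6, Psma7, Psmb4 and one of Psmb5.

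**Figure D1:**
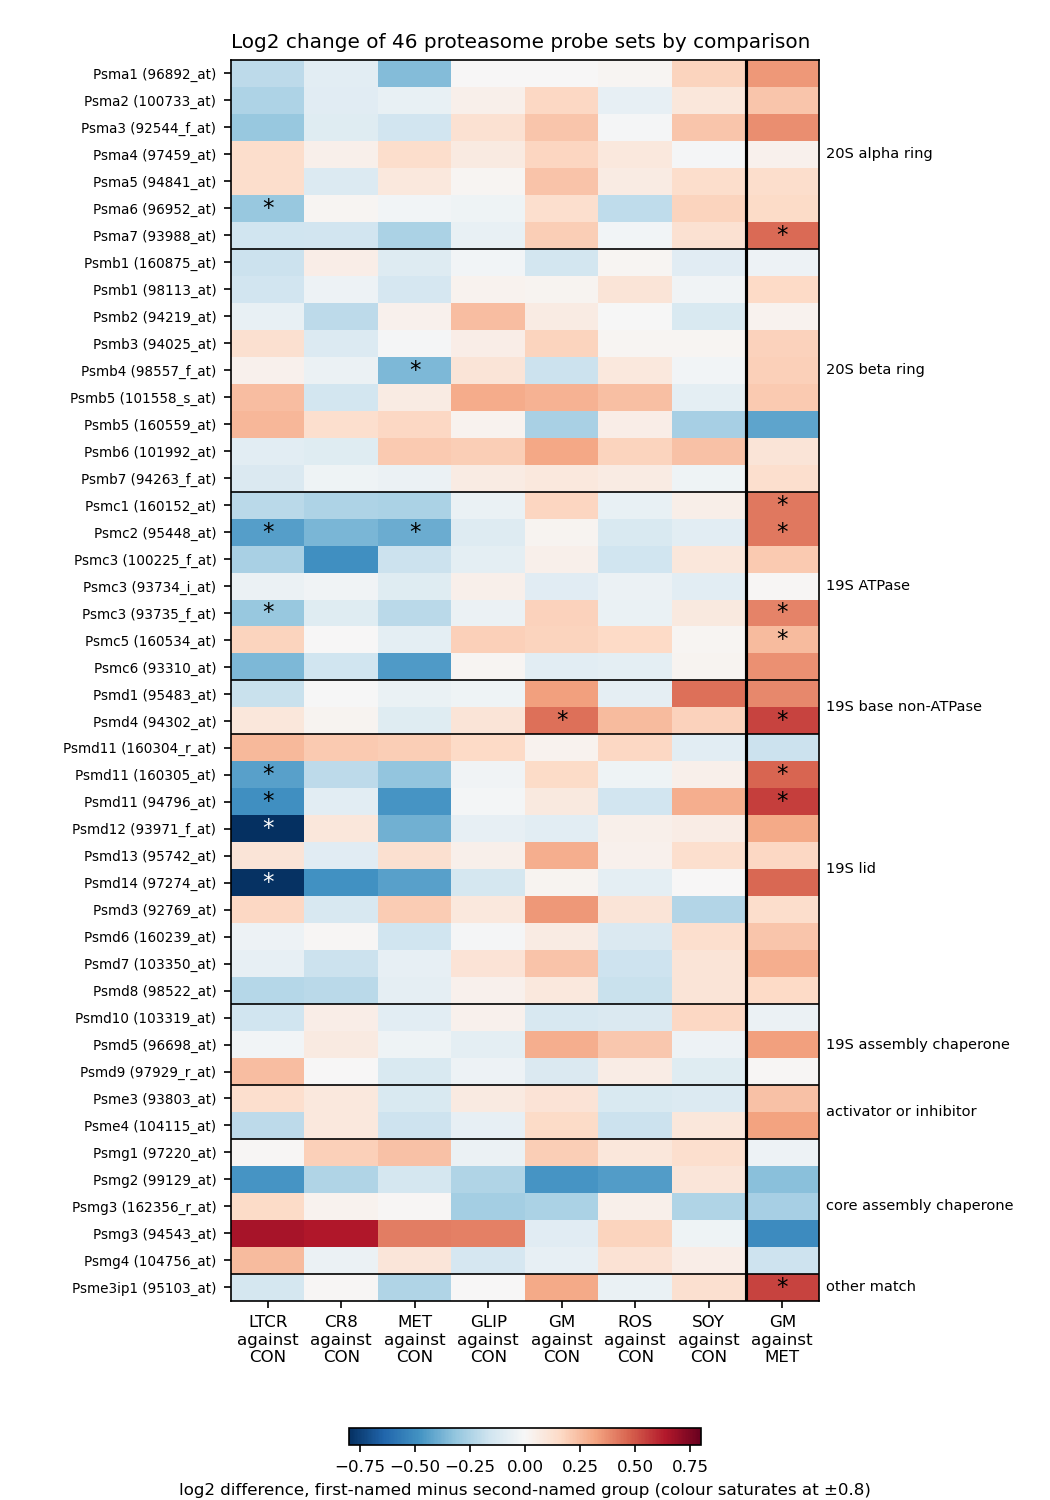
Log2 difference of the 46 tested proteasome probe sets (rows, by role) in the 7 treated groups against CON and in GM against MET (columns). Red is higher and blue lower in the first-named group, and stars mark adjusted p below 0.05. The stars in LTCR lie mostly in cap rows, 6 of 7, and those of GM against MET in 9 rows that are all red.

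The first contrast, LTCR against CON, addresses restriction over most of adult life. Lower levels of 7 probe sets for 6 genes were found and no higher ones: the lid genes Psmd14, Psmd12 and Psmd11, the ATPases Psmc2 and Psmc3, and the alpha subunit Psma6. That is 15.2% of the 46 probe sets in either direction, against 19.3% of all probe sets tested, and 11.8% of all were lower. The share of the whole family is thus near the background. By role, 6 of 22 cap and 1 of 16 core probe sets were lower. The median log2 change was -0.10 over the 46, -0.17 over the cap, -0.10 over the core and 0.00 over all probe sets tested.

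Psmd14 measured 365.2, 369.0, 432.1 and 387.6 units in LTCR, against 645.0, 791.2, 680.2 and 649.5 units in CON. Every LTCR array lay below every CON array. The mean was 388.5 ± 30.7 in LTCR and 691.5 ± 68.3 in CON (SD, n = 4 each), a log2 change of -0.79 ± 0.14 (SE, limma, adjusted p = 0.00026). This call held in all 19 alternative settings, with changes between -0.84 and -0.70. Psmc2 measured 1203.6, 1300.4, 1599.5 and 1046.0 units in LTCR, against 1725.0, 1800.7, 1782.2 and 1648.5 units in CON. The groups did not overlap, and the log2 change was -0.44 ± 0.09 (limma, adjusted p = 0.00109), also called in all 19 settings.

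Psmd12, a lid subunit, had the largest change of the called members but the widest spread. Its LTCR arrays measured 69.4, 135.8, 304.7 and 16.9 units, against 288.9, 246.0, 295.6 and 308.8 units in CON. The third LTCR array lay among the CON arrays and the fourth lay below the 27 units added before taking logs. The log2 change was -1.34 ± 0.31 (limma, adjusted p = 0.0027), and a fit to LTCR and CON alone gave an adjusted p of 0.0872.

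Psmd11, a lid subunit that clamps the cap to the core, has 3 probe sets. The first measured 695.4, 791.8, 1008.7 and 732.0 units in LTCR, against 1069.9, 1184.6, 1055.0 and 1045.4 units in CON. The second measured 2033.7, 1899.7, 2463.8 and 2092.1 units in LTCR, against 2903.0, 2589.6, 3371.7 and 3131.3 units in CON. Neither pair of groups overlapped, and their log2 changes were -0.43 ± 0.13 (limma, adjusted p = 0.0146) and -0.49 ± 0.15 (limma, adjusted p = 0.0218). Without CON 3 the second had an adjusted p of 0.0757, and without the arrays with muscle transcripts 0.0729, and without LTCR 1 the first had one of 0.065. The third Psmd11 probe set, with an identifier suffix that marks a less specific design, had a log2 change of 0.26 and was not called. Suffixes of this kind are also carried by the called probe sets of Psmd12, Psmc3, Psmb4 and Lap3 and by a called probe set of Ube2d3, among others. Psmc3 was called on 1 of 3 probe sets, which averaged 727.6 ± 49.7 in LTCR and 908.1 ± 106.6 units in CON, a log2 change of -0.30 ± 0.10 (limma, adjusted p = 0.025; 0.0987 without CON 2). The other 2 had log2 changes of -0.26 and -0.04.

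Psma6, a subunit of the outer ring of the core, measured 2419.3, 2713.6, 2774.2 and 2537.1 units in LTCR, against 2938.7, 3366.1, 3421.8 and 3195.1 units in CON. The groups did not overlap, and the log2 change was -0.30 ± 0.09 (limma, adjusted p = 0.0122; 0.0637 with arrays scaled to equal medians). The 9 beta-ring probe sets gave no call, with log2 changes between -0.17 and 0.27. For the proteolytic subunits the changes were 0.25 and 0.27 for the Psmb5 probe sets, -0.08 for Psmb6 and -0.12 for Psmb7. Psmc5, an ATPase, was above every CON array on all 4 LTCR arrays, at 928.9 ± 33.9 units in LTCR and 818.5 ± 54.5 units in CON, but did not pass the threshold (limma, adjusted p = 0.0678). Its lowest LTCR array, at 879.6 units, all but tied with its highest CON array, at 879.5 units. In all, 5 of the 46 lay below CON on every LTCR array and 3 above, which is 17.4%, against 21.2% of all probe sets tested.

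**Figure D2:**
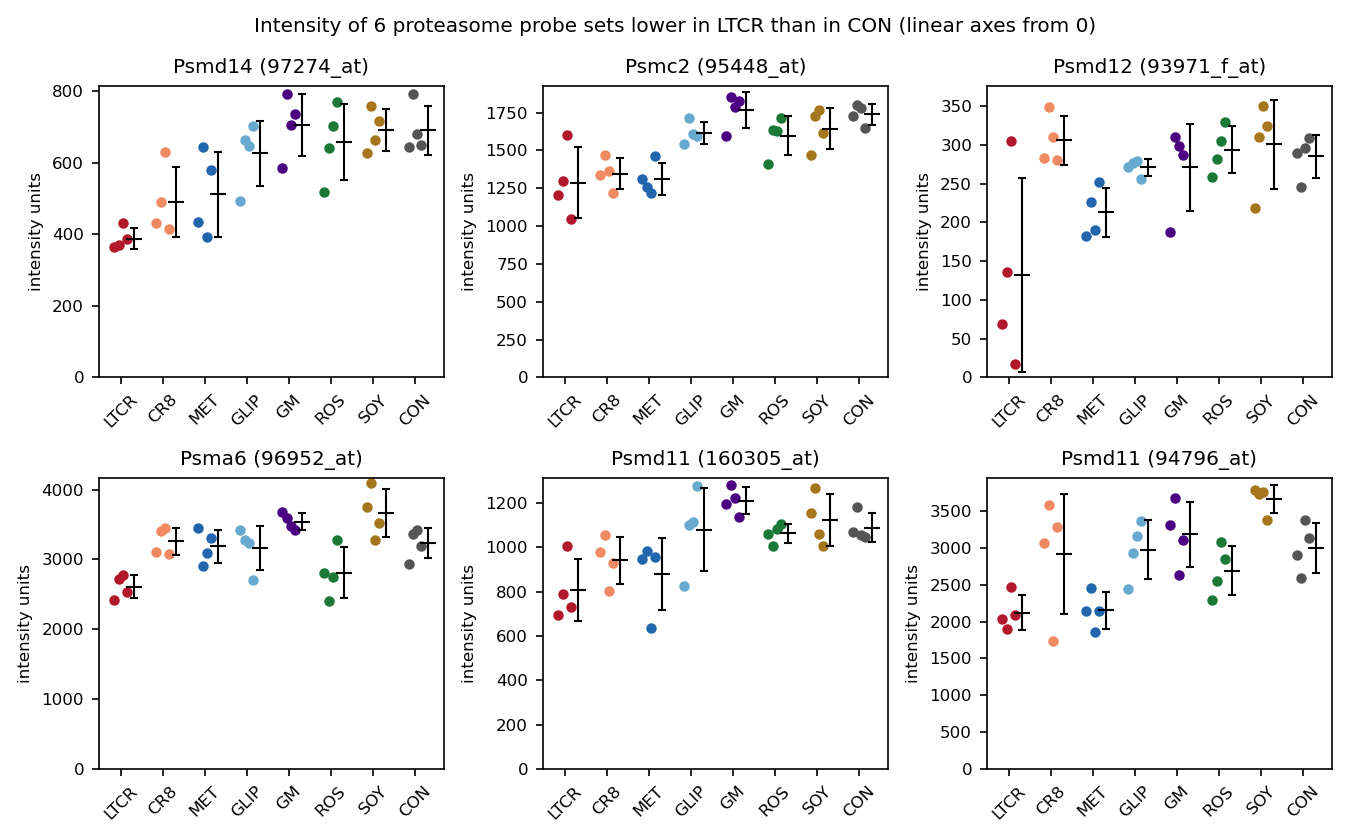
Intensity of 6 probe sets on each array (points, left to right LTCR to CON) with mean and SD (black). LTCR lies low in every panel, and its Psmd12 arrays spread from 16.9 to 304.7 units.

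Markers of Kupffer cells and macrophages also differed between these groups. The summed intensity of the 12 genes of 14 found on the array was 3432 to 4915 units in LTCR and 5527 to 6912 units in CON, with no gene at 0. Summed hepatocyte markers were 158900 to 182700 units in LTCR and 134900 to 149100 units in CON, while their mean log2 levels overlapped. The part of either in the proteasome differences was not tested. Of the immunoproteasome genes, which interferon induces, Psmb9 was at 210.4 ± 78.8 units in LTCR and 466.4 ± 117.1 units in CON, a log2 change of -1.10 ± 0.27 (limma, adjusted p = 0.00367). Psmb8 fell by 0.94 ± 0.28 on the log2 scale (limma, adjusted p = 0.0177; 0.0649 without CON 4), and Psmb10 and Psme1, at -0.16 and -0.19, were not called.

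The partners of the proteasome, 28 genes that make, carry or edit ubiquitin chains, assemble the core or trim its peptides, passed the filter with 38 probe sets for 26 genes. In LTCR 11 of the 38 were lower and 4 higher, which is 39.5%, against 19.3% of all probe sets tested. The partners were chosen with earlier results of these data known. Their shares, here and in the other comparisons, therefore describe the list and do not test the pathway. Pomp, the chaperone that completes the core, was at 1494 ± 292.8 units in LTCR and 2556 ± 300.0 units in CON, a log2 change of -0.78 ± 0.15 (limma, adjusted p = 0.000345). Ube2d2a and Ube2d3, ubiquitin-conjugating enzymes, fell by 1.28 and by 0.69 to 0.78 on the log2 scale, and Ube2k by 0.82. Also lower were Lap3, a peptidase (-0.83), the ubiquitin-binding proteins Ubqln2 (-0.58) and Sqstm1 (-0.47), the deubiquitinase Usp14 (-0.41), the unfoldase Vcp (-0.35) and the transcription factor Nfe2l2 (-0.31). The higher ones were Ubqln1 (0.50), the chaperone-linked ligase Stub1 (0.47), Bag6 (0.37), which handles mislocalised proteins, and Faf1 (0.32), a Vcp cofactor. Not all Bag6 probe sets were called. The calls of Usp14, Vcp, Nfe2l2, Stub1, Bag6 and Ubqln1 were lost in at least 3 of their alternative settings, and those of Usp14, Vcp, Nfe2l2, Stub1 and Bag6 also without the arrays with muscle transcripts (limma, adjusted p between 0.072 and 0.184).

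CR8 against CON addresses restriction begun late in life. No proteasome probe set was called, against 0.544% of all probe sets tested, and 5 of 46 had an unadjusted p below 0.05, against 851 of all 7357. Psmc2 measured 1335.1, 1472.1, 1364.6 and 1219.3 units in CR8, against the CON values of 1648.5 to 1800.7 units, with a log2 change of -0.36 ± 0.09 (limma, adjusted p = 0.0684). Psmd14 was at 491.6 ± 98.1 units in CR8 and 691.5 ± 68.3 units in CON, a log2 change of -0.48 ± 0.14 (limma, adjusted p = 0.119). One probe set of Psmc3, averaging 157.8 units in CR8 and 230.0 in CON, had a log2 change of -0.49 (limma, adjusted p = 0.292). Lying below CON on every array were 4 of 46, those of Psmc1, Psmc2, Psmd8 and Psmd14, or 8.70%, against 3.64% of all probe sets tested. All 4 are cap genes, and none passed the threshold. Sqstm1 was the partner called, at -0.34 (limma, adjusted p = 0.0408), which 10 of 19 alternative settings lost, among them that without the arrays with muscle transcripts.

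LTCR against CR8 sets lifelong against late restriction. Lower in LTCR were 2 of 46 probe sets (4.35%), against 7.34% of all probe sets tested that were lower. Psma6 was at 2611 ± 162.7 units in LTCR and 3259 ± 191.7 units in CR8, without overlap, a log2 change of -0.32 ± 0.09 (limma, adjusted p = 0.0153; 0.0613 without the arrays with muscle transcripts). Psmd12 measured 283.3, 348.2, 309.3 and 280.9 units in CR8, which the third LTCR array overlaps, for a log2 change of -1.43 ± 0.31 in LTCR (limma, adjusted p = 0.0031). Psmd14 and Psmc2 did not differ past the threshold, with log2 changes of -0.30 and -0.08. One Psmb5 probe set had a log2 change of 0.40 (limma, adjusted p = 0.0665). Among the 38 partner probe sets, 6 were lower and 5 higher, against 882 of all 7357 called in either direction. Nfe2l1 was at 886.6 ± 123.9 units in LTCR and 525.6 ± 80.6 units in CR8 (log2 change 0.73 ± 0.13, limma, adjusted p = 0.000475), while Nfe2l2 was at 924.1 ± 62.7 units in LTCR and 1365 ± 159.6 units in CR8 (-0.54 ± 0.11, limma, adjusted p = 0.00129). Faf1 (0.51) and Ubqln1 (0.56) were also higher and kept their calls without the arrays with muscle transcripts. Ube2d2a (-0.79), Ube2k (-0.67), Ubqln2 (-0.49) and both Ube2d3 probe sets (-0.43 and -0.44) were lower, and Stub1 (0.55) and Bag6 (0.35) higher, but all 7 of these calls were lost without those arrays, with adjusted p values in limma between 0.0913 and 0.239. Bag6 was called here on a different probe set than in LTCR and MET against CON.

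MET against CON addresses metformin alone. Lower in MET were 2 of 46 probe sets (4.35%), Psmc2 and Psmb4, and none was higher. Of all probe sets tested, 2.34% were lower and 4.17% were called in either direction. Psmc2 measured 1314.8, 1257.3, 1221.6 and 1462.6 units in MET, all below the lowest CON value of 1648.5 units, a log2 change of -0.40 ± 0.09 (limma, adjusted p = 0.0154). Psmb4, a beta subunit without proteolytic activity, measured 3128.3, 3594.0, 2546.0 and 3473.7 units in MET, against 4082.8, 4893.0, 3732.9 and 3659.0 units in CON. The log2 change was -0.36 ± 0.10 (limma, adjusted p = 0.0464), and 10 of 18 alternative settings lost the call. A fit to MET and CON alone called neither gene, with adjusted p values of 0.0746 for Psmc2 and 0.207 for Psmb4, and the count was also 0 without the arrays with muscle transcripts and with equal medians.

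All 7 ATPase probe sets, of which that of Psmc2 was called, had negative log2 changes in MET, with a median of -0.22, against -0.03 over all probe sets tested. Psmc6 was at 2933 ± 460.4 units in MET and 3991 ± 376.7 units in CON, a log2 change of -0.45 ± 0.14 (limma, adjusted p = 0.061). Of the 46, 9 lay below CON on every array, or 19.6%, against 6.10% of all probe sets tested, and none lay above CON on every array. They were Psmb4, Psma1, Psmc1, Psmc2, Psmc6, Psmd14, both called Psmd11 probe sets of LTCR and Psme3ip1. Among the partners 5 were lower and 1 higher in MET, which is 15.8% of 38, against 4.17% of all probe sets tested. Lap3 was at 107.9 ± 7.30 units in MET and 276.2 ± 58.0 units in CON, a log2 change of -1.15 ± 0.19 (limma, adjusted p = 0.00132). Usp14 (-0.57), Pomp (-0.51), Ube2d3 (-0.48) and Sqstm1 (-0.42) were lower, and Bag6 (0.41) was higher. Ube2d3 and Bag6 were each called on 1 probe set and not on another. The call of Pomp was lost in 13 of 19 alternative settings and those of Ube2d3 and Bag6 in 10 of 18 each. Without the arrays with muscle transcripts, Usp14, Pomp, Ube2d3 and Bag6 were not called (limma, adjusted p between 0.0723 and 0.164).

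Summed hepatocyte markers were 155300 to 163500 units in MET and 134900 to 149100 units in CON, without overlap, while their mean log2 levels overlapped. Kupffer cell and macrophage markers overlapped, at 5911 to 8754 units in MET and 5527 to 6912 units in CON. The part of the hepatocyte markers in the proteasome differences was not tested.

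GM against CON addresses both drugs given together. Higher in GM was 1 of 46 probe sets (2.17%), that of Psmd4, the ubiquitin receptor of the cap, against 0.870% of all probe sets tested that were higher and 1.55% called in either direction. Psmd4 measured 1486.5, 1782.6, 1245.0 and 1679.1 units in GM, against 1052.0, 1050.4, 1236.4 and 1158.9 units in CON. The groups did not overlap, with the third GM array just above the highest CON array. The log2 change was 0.44 ± 0.11 (limma, adjusted p = 0.0344), with an adjusted p of 0.132 in a fit to GM and CON alone, and 8 of 19 alternative settings lost the call. Psmd13, a lid subunit, was at 948.8 ± 70.6 units in GM and 770.9 ± 83.0 units in CON (limma, adjusted p = 0.0877), and Psme3ip1 at 472.8 ± 23.2 units in GM and 378.8 ± 13.5 units in CON (limma, adjusted p = 0.11). Above CON on every array were 10 of 46 probe sets, or 21.7%, against 4.51% of all probe sets tested, and none was below CON on every array. Of the 38 partner probe sets, that of Lap3 was called, at 157.5 ± 44.7 units in GM and 276.2 ± 58.0 units in CON (log2 change -0.73 ± 0.19, limma, adjusted p = 0.048), and 11 of 17 alternative settings lost the call, among them that without the arrays with muscle transcripts (0.0861).

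As scaled by the authors, the arrays had medians of 144.9 to 155 units in GM and 162.3 to 165.6 units in CON, without overlap. The median log2 change in GM was 0.10 over the 46 probe sets and -0.05 over all probe sets tested. Scaling the arrays to equal medians moved these to 0.24 and 0.09, and 9 members were then called higher instead of 1. Of all probe sets 5.87% were then called, against 1.55% as scaled by the authors. That scaling shifts all probe sets of an array nearly alike, so it can hardly change the 0.15 by which the family stood above all probe sets. With quantile normalization the family stood 0.11 above all probe sets. All 7 alpha-ring probe sets had positive changes, with a median of 0.17, and 9 of 10 lid probe sets did. Summed hepatocyte markers overlapped, at 148600 to 177800 units in GM and 134900 to 149100 units in CON, but their mean log2 level was 13.87 to 14.15 in GM and 13.77 to 13.82 in CON, without overlap. Their part in the proteasome differences was not tested.

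GM against MET sets both drugs against metformin alone, and it gave the most proteasome calls of the 10 comparisons. As the doses were not used here, it was not checked whether both groups received metformin alike. Higher in GM were 9 of 46 probe sets, or 19.6%, against 1.30% of all probe sets tested that were higher and 2.62% called in either direction. No member was lower. The 9 belonged to 8 genes: the ATPases Psmc1, Psmc2, Psmc3 and Psmc5, the ubiquitin receptor Psmd4, Psmd11 on both of its more specific probe sets, the alpha subunit Psma7, and Psme3ip1, which binds the activator Psme3. The arrays of the groups did not overlap for any of the 9, and GM lay above MET on every array for 13 of 46, or 28.3%, against 4.31% of all probe sets tested.

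Psmd4 averaged 1548 ± 236.5 units in GM and measured 1088.4, 897.2, 1058.5 and 1156.7 units in MET, a log2 change of 0.54 ± 0.11 (limma, adjusted p = 0.00659). Psma7 measured 1968.4, 1963.7, 1949.0 and 2164.3 units in GM, against 1414.8, 1428.4, 1330.2 and 1703.4 units in MET, a change of 0.45 ± 0.10 (limma, adjusted p = 0.00964). Psmc2 measured 1594.7, 1853.5, 1788.6 and 1829.4 units in GM, against at most 1462.6 units in MET, a change of 0.42 ± 0.09 (limma, adjusted p = 0.0139). The CON values of Psmc2, 1648.5 to 1800.7 units, lay within the range of GM, and those of Psma7, 1692.0 to 1841.1 units, lay below it.

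Psmc1 measured 987.4, 1172.3, 888.6 and 1119.5 units in GM, against 811.6, 713.5, 717.5 and 829.3 units in MET. Its log2 change was 0.42 ± 0.10 (limma, adjusted p = 0.0201). Psmc5 had a narrow spread, 893.8, 947.5, 928.8 and 937.4 units in GM and 713.0, 768.5, 808.7 and 805.3 units in MET, and a change of 0.25 ± 0.07 (limma, adjusted p = 0.0416). Both ATPases were thus higher on all 4 GM arrays than on any MET array. Psmc3 was called on the probe set that was lower in LTCR, at 0.40 ± 0.10 (limma, adjusted p = 0.0223). Psmd11 was at 1211 ± 60.7 units in GM and 881.4 ± 162.7 units in MET on the first probe set, where MET 3 stood low at 638.5 units, and at 3181 ± 435.0 units in GM and 2150 ± 245.4 units in MET on the second (changes 0.46 and 0.56, limma, adjusted p = 0.0416 and 0.0448). Psme3ip1 measured 474.8, 486.6, 439.4 and 490.4 units in GM, against 335.6, 260.2, 317.1 and 362.4 units in MET, a change of 0.54 ± 0.10 (limma, adjusted p = 0.00453).

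**Figure D3:**
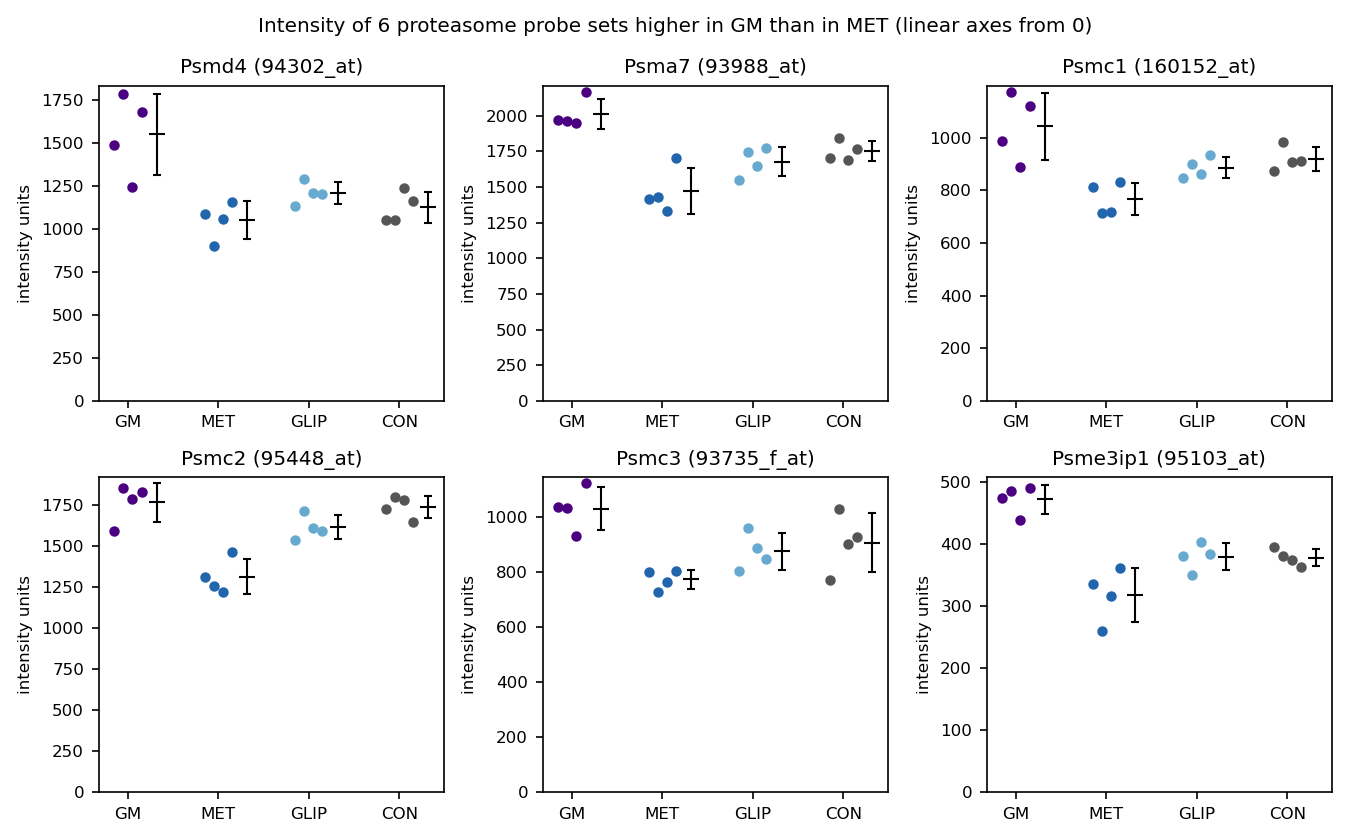
Intensity of 6 probe sets on each array of GM, MET, GLIP and CON (points) with mean and SD (black). GM lies above MET without overlap in every panel, and GLIP and CON mostly lie between them.

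By role, all 7 ATPase, all 7 alpha-ring, 9 of 10 lid and 7 of 9 beta-ring probe sets had positive changes, and 4 of the ATPase ones were called. The 5 probe sets of the core assembly chaperones Psmg1 to Psmg4 all had negative changes, with a median of -0.26, and none was called. Over the family 37 of 46 changes were positive (80.4%), against 47.6% of all probe sets tested, with medians of 0.20 and -0.01. Scaling to equal medians, which shifts both nearly alike, gave 0.27 and 0.05. Quantile normalization gave 0.19 and 0.004, which are 0.18 apart, against 0.21 as scaled by the authors.

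The calls depend on the shared estimate of spread. A fit to GM and MET alone called 0 of 7357 probe sets, and the adjusted p of the 9 members was then between 0.115 and 0.253. With 1 array left out, 4 to 8 of the 46 were called, 4 without GM 2 and 4 without GM 4. Without the arrays with muscle transcripts, none of which is in GM or MET, Psmc5 and both Psmd11 probe sets were no longer called (limma, adjusted p between 0.0527 and 0.0695). Hepatocyte markers overlapped, at 148600 to 177800 units in GM and 155300 to 163500 units in MET. So did those of Kupffer cells and macrophages, at 4597 to 8327 units in GM and 5911 to 8754 units in MET. GM against MET and MET against CON share the MET arrays, so the low MET levels enter both. Among the partners Vcp (0.49) and Sqstm1 (0.41) were higher in GM than in MET, and Faf1 (-0.31) was lower, with an adjusted p in limma of 0.0609 without the arrays with muscle transcripts. These are 3 of 38, or 7.89%, against 2.62% of all probe sets tested.

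GM against GLIP sets both drugs against glipizide alone, again without a check of the doses. None of the 46 was called, and of all probe sets tested 0% were called, while 675 of the 7357 and 9 of the 46 had an unadjusted p below 0.05. Psmd4 was at 1548 ± 236.5 units in GM and 1208 ± 62.8 units in GLIP, a log2 change of 0.34 ± 0.11 (limma, adjusted p = 0.411). Psme3ip1, at 472.8 ± 23.2 units in GM and 380.1 ± 22.0 units in GLIP, and Psmd13, at 948.8 ± 70.6 units in GM and 789.9 ± 45.7 units in GLIP, had log2 changes of 0.30 and 0.26. Psma7 was at 2011 ± 102.3 units in GM and 1678 ± 100.7 units in GLIP, without overlap, but its adjusted p in limma was 0.468. The median log2 change was 0.10 over the family and -0.04 over all probe sets tested.

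GLIP, ROS and SOY gave no proteasome call against CON, where the shares of all probe sets called were 0.136% in GLIP, 0.136% in ROS and 0% in SOY. An unadjusted p below 0.05 was found for 2 of the 46 in GLIP, 4 in ROS and 2 in SOY, against 689, 619 and 601 of all 7357 in the same order. The smallest p in GLIP belonged to Psmc5, at 939.1 ± 44.4 units in GLIP and 818.5 ± 54.5 units in CON, above every CON array (limma, adjusted p = 0.344). Next came one probe set of Psmb5 (log2 change 0.30) and one of Psmg3 (-0.27). In ROS it belonged to Psma6, at 2812 ± 359.7 units in ROS and 3230 ± 217.1 units in CON (limma, adjusted p = 0.521), followed by Psmd4 (log2 change 0.25) and Psmc5 (0.16). In SOY it belonged to Psmd1, the scaffold of the base, which measured 1720.5, 1906.8, 1893.1 and 2046.4 units in SOY, against 1130.0, 1482.5, 1509.4 and 1441.8 units in CON. Psmd1 was thus above CON on every SOY array, a log2 change of 0.44 ± 0.14 (limma, adjusted p = 0.391). Psma6 (0.18) and the second Psmd11 probe set (0.29) followed. Sqstm1 was the partner called, lower in ROS by a log2 change of -0.40 ± 0.08 (limma, adjusted p = 0.0254; 0.135 in a fit to ROS and CON alone and 0.115 without the arrays with muscle transcripts).

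**Figure D4:**
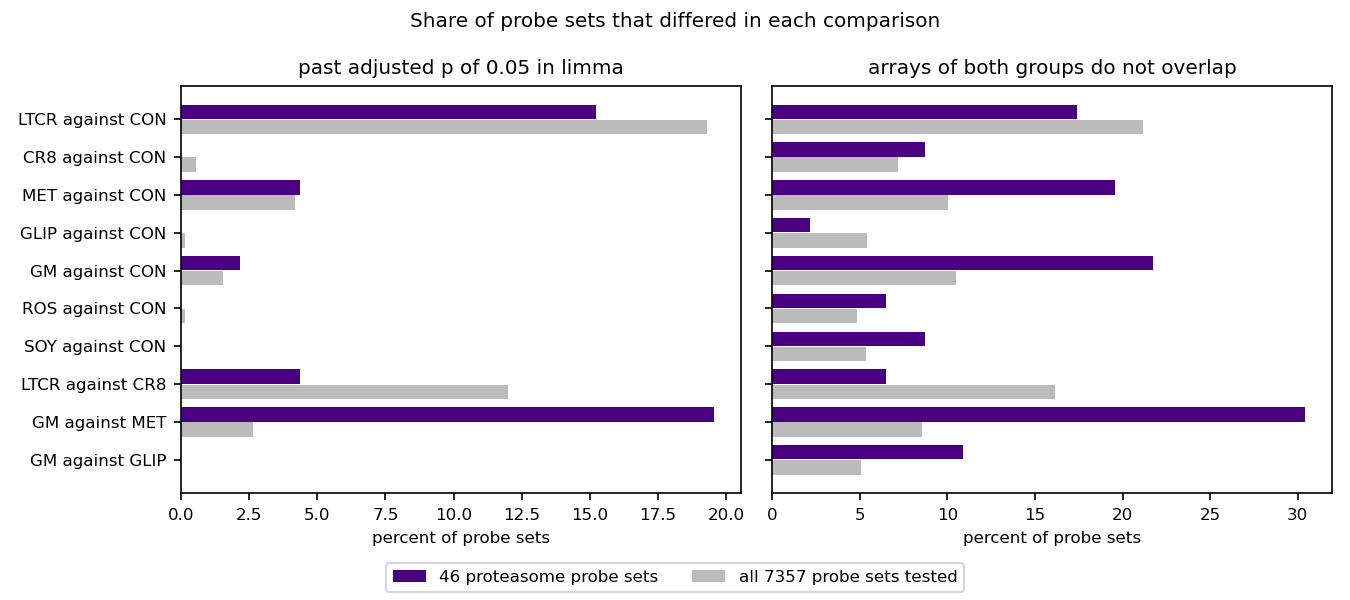
Percent of the 46 proteasome probe sets (purple) and of all 7357 probe sets tested (grey) that were called by limma (left) or whose arrays did not overlap between the groups (right), for 10 comparisons. GM against MET, at 19.6% and 30.4% in either direction, stands furthest above the grey bars, and in LTCR the purple bars are shorter than the grey ones.

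Core and cap were compared on each array as the mean log2 difference of their probe sets from the CON mean. The cap averaged -0.20 ± 0.11 in LTCR, -0.10 ± 0.06 in CR8, -0.16 ± 0.04 in MET, 0.005 ± 0.080 in GLIP, 0.11 ± 0.07 in GM, -0.02 ± 0.06 in ROS, 0.06 ± 0.07 in SOY and 0.00 ± 0.06 in CON (SD, n = 4 each). The highest cap mean was -0.057 in LTCR, -0.0447 in CR8 and -0.11 in MET, all below the lowest in CON, -0.0421. The core averaged -0.05 ± 0.10 in LTCR, -0.06 ± 0.08 in CR8, -0.05 ± 0.06 in MET, 0.09 ± 0.06 in GM and 0.00 ± 0.08 in CON, where LTCR, CR8 and MET overlapped CON.

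The core stood above the cap on all 4 LTCR arrays, by 0.14 ± 0.06, and on all 4 MET arrays, by 0.11 ± 0.06, while the difference in CON was between -0.05 and 0.03. No LTCR or MET array overlapped CON in this difference. Neither did GLIP, where the core stood above the cap by 0.07 ± 0.04 (0.0299 to 0.112). The lowest GLIP array barely exceeded the highest CON array, at 0.0286, and the lowest MET array, at 0.0379, was also close to it. The LTCR cap means include Psmd12, at 69.4 units on LTCR 1 and 16.9 units on LTCR 4. The difference without Psmd12 was not computed. In CR8 the core was also above the cap on all 4 arrays, by 0.04 ± 0.02, with overlap. Taken as medians over probe sets of the fitted changes, the gap between core and cap was smaller, at 0.07 in LTCR and 0.08 in MET, and its sign in LTCR turned to -0.06 without LTCR 3 and to -0.03 with a stricter filter on intensity. In GM against MET the median change was 0.30 over the cap and 0.155 over the core, a core minus cap difference of -0.14.

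**Figure D5:**
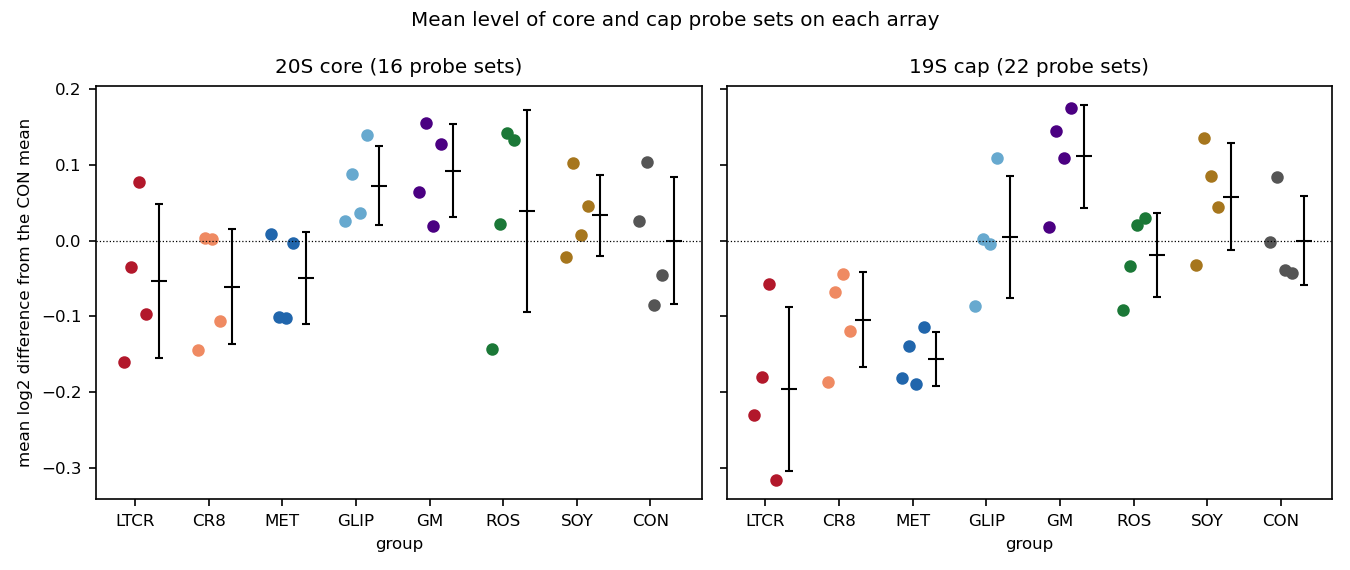
Mean log2 difference from the CON mean over the 16 core (left) and 22 cap (right) probe sets on each array (points), with group mean and SD (black). The cap lies lowest in LTCR and MET and highest in GM, and the core spans overlapping ranges in most groups.

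The remaining regulators gave no call against CON. Psme3 and Psme4, activators that open the core without the ATPases, had log2 changes of 0.13 and -0.21 in LTCR and of 0.11 and 0.15 in GM. Psmg1 and Psmg2, chaperones that pair the alpha subunits, had log2 changes of 0.20 and -0.47 in GM, with 115.5 ± 25.8 units of Psmg2 in GM and 172.0 ± 41.9 units in CON (limma, adjusted p = 0.212). In LTCR Psmg2 was at 115.2 ± 21.3 units, a change of -0.47 (limma, adjusted p = 0.101).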

How the data were processed

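Liver RNA of 32 mice, 4 per group, was hybridised to MG-U74Av2 arrays, per the labels. The authors deposited 1 linear intensity per probe set and array, already scaled: the mean of each column without its top and bottom 2% was 500.4 to 500.5. Software, background correction, detection calls and batches are not given in the sources used here. Of 12488 probe sets, 66 controls were left out of tests; the platform annotation named 1 gene for 10833, several for 396 and none for 1193 of the others.

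Values were analysed as log2(intensity + 27), 27 being the 20th percentile of all intensities, which understates changes of dim genes. Probe sets with a mean log2 value above that of the 40th percentile, 94.2, were kept, 7357 in all. limma 3.58.1 in R 4.3.3 (lmFit, eBayes with trend) fitted the 8 groups together, with 24 residual and 4.59 prior degrees of freedom, and p-values were adjusted by Benjamini-Hochberg separately for the 10 comparisons and the F-test, with a threshold of 0.05. The fit was tested on simulated data. Errors are SDs over arrays, or standard errors of log2 changes. The number of arrays limits the precision. Each mouse gave 1 array.

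Replicate numbers did not pair the arrays: same-numbered arrays of different groups deviated together with a median correlation of -0.006 (range -0.23 to 0.24). Alternatives were other scalings, added values, filters, fits and probe set choices, the replicate number as a block, and leaving out arrays. The members and lists were chosen with earlier results of these data known. In each comparison the text names the members past the threshold, or the 3 with the smallest p where fewer than 3 pass, the catalytic subunits, Psmd4, Psmd11, Psmd14, the activators and chaperones, and partners past the threshold, leaving out the least informative. Markers of adipocytes (960.1 to 2341 units summed over 4 genes of 6) and pancreatic acinar cells (1129 to 2297 units over 4 of 9) were also read. Promoter sequences are from RefSeq, GRCm38.p6.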

Additional observations from a re-analysis of the deposited data

Results flagged for a closer look

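For 13 proteasome probe sets and the means over the core and over the cap, examined in 8 groups, 120 sets of 4 arrays were tested, and in 6 of them 1 array stood far from the other 3, its gap to the nearest divided by the group's range being above Dixon's critical value for 4 samples. Chance gives about 1 in 20, which is the share found here. The ratio was 0.912 for the first Psmd11 probe set in MET, where MET 3 was lowest at 638.5 units. It was 0.875 for Psmb4 in GLIP, where GLIP 4 was highest at 4731.3 units. In GM it was 0.840 for Psmd12, where GM 1 was lowest at 187.6 units, and 0.906 for Psma7, where GM 4 was highest at 2164.3 units. In SOY it was 0.903 for Psmc1, where SOY 2 was highest at 1088.5 units, and 0.869 for the second Psmd11 probe set, where SOY 4 was lowest at 3382.9 units. Among the calls between pairs of groups, those of the first Psmd11 probe set and of Psma7 in GM against MET include such a group. With 1 array of the compared groups left out, the Psma7 call was kept in 8 of 8 settings. The call of that Psmd11 probe set was kept in 3 of 8. All 6 probe sets are among those called by the F-test over the 8 groups.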

How the results depend on the processing

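No value changed sign while called. Over 111 results and their alternatives, 1766 values were kept, 286 became weaker, 12 became stronger and 29 moved without a test. For a tested change, kept means the same direction and side of the threshold, and weaker or stronger means a call lost or gained. For a count of calls, kept means within 1.5 times, and weaker or stronger means a larger fall or rise. The counts of called probe sets in LTCR against CON (7), and for the F-test (19), stayed within 1.5 times under every alternative that kept all arrays. GLIP, ROS and SOY against CON and GM against GLIP stayed at 0 calls under every alternative. For MET against CON, 2 became 0 with equal medians, 0 in a fit to the 2 groups, 0 without the arrays with muscle transcripts, and 1 without a filter or with plain identifier suffixes alone. For GM against CON, 1 became 9 with equal medians and 0 without a filter or in a fit to the 2 groups. For LTCR against CR8, 2 became 4 with quantile normalization and 1 with plain suffixes, with a fit to the 2 groups, without the muscle arrays or with the stricter filter. For GM against MET, 9 became 0 in a fit to the 2 groups, in which fewer arrays estimate the spread. The cause of the other changes was not tested.

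Equal medians moved the family's median log2 change to -0.023 in MET, 0.241 in GM and 0.163 in SOY against CON, 0.267 in GM against MET and 0.223 in GM against GLIP. Relative to all probe sets tested these were -0.062, 0.154, 0.084, 0.215 and 0.144, against -0.057, 0.148, 0.080, 0.213 and 0.136 in the authors' scaling. Equal medians shift all probe sets of an array nearly alike, so these differences could hardly change. With quantile normalization they were -0.063, 0.109, 0.054, 0.184 and 0.072. The core minus cap median is small and unstable. It moved to -0.0324 in LTCR with a filter at the 60th percentile, and to 0.162 in MET without the muscle arrays. In GM against CON it was -0.0098 with quantile normalization, 0.0058 without a filter, -0.0019 with a filter at the 60th percentile, -0.0115 with plain suffixes and 0.0093 without the muscle arrays. In SOY it was -0.113 with quantile normalization. In GM against MET it was -0.198 with plain suffixes. In GM against GLIP it was 0.0041 without a filter and -0.0183 with 1 probe set per gene.

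With 1 array left out, the calls were 3 (without LTCR 1) to 10 (without LTCR 3) in LTCR, 0 to 1 in CR8, 1 to 3 in MET and 0 to 1 in GM, each against CON, 1 to 6 in LTCR against CR8 and 4 to 8 in GM against MET. The single call in CR8 appeared without CR8 3. Core minus cap then ranged from -0.057 to 0.149 in LTCR, -0.021 to 0.060 in CR8, 0.040 to 0.162 in MET, 0.042 to 0.126 in GLIP, 0.0093 to 0.101 in GM, -0.068 to 0.018 in SOY, all against CON, and -0.172 to -0.077 in GM against MET. The family's median in MET ranged from -0.115 to -0.042. With the replicate number as a block, the calls were 7 in LTCR, 3 in MET, 1 in GM, 2 in LTCR against CR8 and 9 in GM against MET, and the second Psmd11 probe set had an adjusted p of 0.0571 in GM against MET in limma. Of the partners, Bag6 (0.0552) and Pomp (0.0612) in MET against CON and Ube2k (0.0502) in LTCR against CR8 also lost their calls.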

Other observations

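Probe sets of the same gene did not always move together. The 2 Psmb5 probe sets had log2 changes of 0.28 and -0.26 in GM against CON, and in GM against MET the second lay below MET on every array, at 515.8 ± 51.9 units in GM and 700.5 ± 77.5 units in MET (log2 change -0.42 ± 0.15, limma, adjusted p = 0.125). For Psmg3, a chaperone of core assembly, one probe set measured 583.4, 387.1, 346.2 and 319.9 units in LTCR and 385.4, 98.5, 191.8 and 438.8 units in CON, with overlapping arrays and a log2 change of 0.66, and the other had a change of 0.15.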
